A study of Arabidopsis thaliana with 6 samples.

Results

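The mitochondrial genome transcripts described here are all 152 rows, of 32833 in the deposited expression table, whose identifier starts with ATMG, the prefix of loci of the Arabidopsis thaliana mitochondrial chromosome. RNA-seq was made from freshly harvested seeds, with 3 libraries for each of 2 genotypes, Columbia-0 as the wild type (Col-0) and the asf1a1b double mutant, in which both genes for the histone chaperone ASF1 are mutated. No allele names, treatment or seed age beyond a harvest within 24 h are given. Parent plants grew at about 21 °C in long days. A stratification of 4 days at 4 °C is also mentioned, and whether it applied to the sequenced seeds is not settled. Whether the 3 libraries of each genotype are separate plants or harvests is not stated, and p-values therefore reflect only variation among these samples, possibly technical. Levels are in rescaled TPM, a signal per transcript length that the authors scaled between libraries. The targeted genes were low in each mutant library, with ASF1A at 2.06 to 2.52 against 15.4 to 17.8 in Col-0, and ASF1B at 0.157 to 0.334 against 2.26 to 4.36. The seed identity was checked with OLEO1, an oil body protein gene of seeds, which stood at 10165 to 14557 in the 6 libraries. The early embryo gene LEC1 was at 0 in 5 libraries and at 0.058 in asf1a1b replicate 3.

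Plant mitochondria keep their own genome, which encodes a core of the respiratory chain and of the ATP synthase, proteins that assemble c-type cytochromes, part of the mitochondrial ribosome, and the ribosomal and some transfer RNAs. The other mitochondrial proteins, including the polymerases that transcribe this genome and nearly all factors that splice, edit and trim its transcripts, come from nuclear genes. Dry seeds hold simple mitochondria and stored mitochondrial RNA, and respiration resumes soon after water is taken up. Some coding sequences are split over distant places of the genome, and the separate transcripts are joined by trans-splicing.

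The 152 rows comprised 41 rows in functional groups, 24 rows of transfer RNA size (under 100 bases), 83 other rows and 4 rows at 0 in all libraries. The 41 comprised 3 ribosomal RNAs, 7 ribosomal protein genes, 14 rows of complex I, 1 of complex III, 3 of complex IV, 6 of ATP synthase, 5 of cytochrome c maturation, 1 intron maturase and 1 protein translocase. The smallest named row was NAD5B (ATMG00665), the 22-base exon of nad5, a complex I subunit whose message is joined from parts. It is shown because a row this short takes its level from few reads, 60 to 118 in Col-0 and 133 to 200 in asf1a1b. The sequence is from the plus strand of the RefSeq mitochondrial genome (TAIR10.1), positions 360077 to 360158, with the exon in capitals.
nad5 short exon with flanks: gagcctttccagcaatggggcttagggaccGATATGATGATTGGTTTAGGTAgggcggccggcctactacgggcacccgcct

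Most mitochondrial transcripts were higher in asf1a1b seeds. Of the 152 rows, 128 passed the filter, a 6-library mean of 1 or more, and were tested. In limma, 70 of these rose in asf1a1b, 0 fell and 58 did not pass an adjusted p of 0.05, where 16.1% of all 14663 tested genes were called higher and 14.5% lower. A positive log2 difference was found for 127 of the 128. The median log2 difference was 0.78 (range -0.07 to 2.03), beside 0.01 over all tested genes. The value ranges of the genotypes did not overlap for 86 of the 128 rows, all higher in asf1a1b, where 24.6% of all tested genes had such a pattern in that direction. The other 24 rows were too low to test, with no library above 1.96.

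Summed over the 152 rows and given in the order of the replicate numbers, as are all series of values here, the level was 2341, 2396 and 3585 for Col-0 against 4038, 5342 and 5479 for the mutant. The highest Col-0 library stayed below the lowest mutant library. The Col-0 mean was 2774 ± 703 and the mutant mean 4953 ± 795 (SD, n = 3), giving a ratio of 1.79. Within the replicate numbers 1, 2 and 3 the ratio was 1.72, 2.23 and 1.53. Of all recovered reads, mitochondrial rows took 0.112%, 0.153% and 0.247% in the Col-0 libraries and 0.202%, 0.338% and 0.318% in asf1a1b. On that scale, which weights long rows, Col-0 replicate 3 lay above asf1a1b replicate 1. Levels and read shares are relative to the other RNA of a library, and absolute amounts were not measured. In such bulk samples, more mitochondrial RNA per cell, more cells rich in it and less of the other RNA cannot be told apart.

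How many rows were called turned on 3 of the libraries. Omitting Col-0 replicate 2 left 34 calls, omitting asf1a1b replicate 2 left 31 and omitting asf1a1b replicate 3 left 28, while omitting any of the other 3 gave 59 to 76. The share of all tested genes called in each of these fits was not taken. Whether the drop in calls is particular to mitochondrial rows is therefore not known. Of the 70 rows, 23 were called whichever library was left out, among them RRN5, NAD7, NAD3, CCMB, CCMFN2 and MATR. With the replicate number as a block, 94 rows were called higher and 0 lower, the 70 among them, where 20.9% of all tested genes were called higher. In the authors' deposited table, 85 of the 88 mitochondrial rows listed had a log2 fold change above 0 and 46 an adjusted p under 0.05 with a positive change, as did 19.8% of all genes listed there. That table calls 3 of them up, where 6.23% of all genes it lists are called up, and no gene in it below a log2 fold change of 1.5 is called up.

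**Figure D1:**
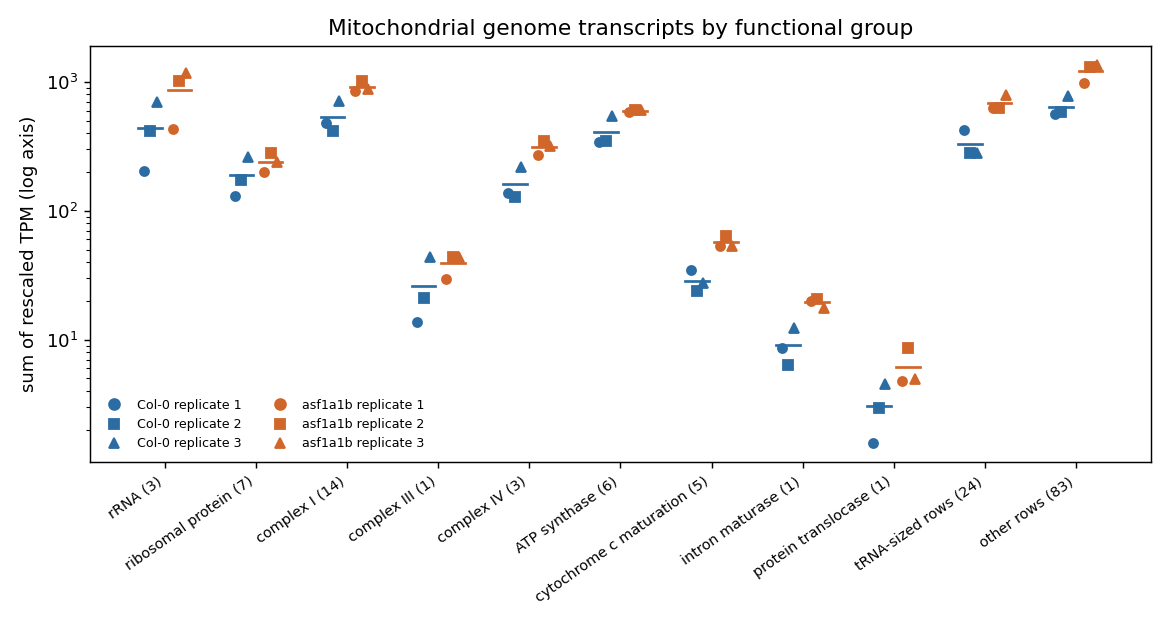
Sum of rescaled TPM (log axis) of each functional group of mitochondrial rows, with the number of rows in brackets; each point is 1 library and each line a genotype mean. The genotypes do not overlap in 8 of the groups, while ribosomal RNA, ribosomal protein and complex III overlap.

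The ribosomal RNAs of the mitochondrial ribosome included the most abundant row, RRN18, and spread widely between libraries of a genotype. RRN18 (ATMG01390), the small subunit RNA, stood at 143, 283 and 482 in Col-0 and at 269, 689 and 773 in asf1a1b. RRN26 (ATMG00020), the large subunit RNA, stood at 47.5, 120 and 197 in Col-0 and at 129, 287 and 342 in asf1a1b. For both, replicate 1 was the lowest library of each genotype, and asf1a1b replicate 1 fell inside the Col-0 range. Neither passed, with log2 differences of 0.95 ± 0.52 for RRN18 and 1.16 ± 0.54 for RRN26 (SE, limma adjusted p = 0.195 and 0.14). With the replicate block, which compares libraries of the same number, the limma adjusted p was 0.0055 and 0.0032.

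RRN5 (ATMG01380), the small RNA that sits in the large subunit, was apart between the genotypes. Its level was 13.8, 12.6 and 19.6 in Col-0 and 31.2, 35.3 and 55.5 in asf1a1b, so that each mutant library lay above each Col-0 library. The log2 difference was 1.33 ± 0.24 (SE, limma adjusted p = 0.0075), and leaving out any single library kept the call (largest adjusted p = 0.036). In the reference, RRN5 and RRN18 are neighbours on the minus strand, 170 bases apart.

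ATMG00030, a row of 324 bases, was the second most abundant in the mean over libraries, ranking second in replicates 2 and 3 of both genotypes, 11th in Col-0 replicate 1 and 6th in asf1a1b replicate 1. It stood at 60.5, 171 and 252 in Col-0 and at 188, 523 and 629 in asf1a1b, again with asf1a1b replicate 1 inside the Col-0 range (log2 difference 1.51 ± 0.60 SE, limma adjusted p = 0.092, and 0.0015 with the replicate block). Its level was 1.27 to 1.42 times that of RRN26 in the Col-0 libraries and 1.45 to 1.84 times in asf1a1b. RefSeq lists 4 open reading frames of this length, and which one the row is was not settled. One of them, ORF107A, shares 185 bases with the annotated RRN26 gene on the opposite strand. The RRN26 row had a recovered length of 2568 bases against 3169 in the reference, and whether it covers the shared stretch was not settled. Where the strand of reads is not used, a read from that stretch cannot be assigned to one or the other. The frame is shown for this reason, from the plus strand at positions 143781 to 143995 of TAIR10.1, with the shared bases in capitals and the next 30 bases of the frame after them.
ORF107A: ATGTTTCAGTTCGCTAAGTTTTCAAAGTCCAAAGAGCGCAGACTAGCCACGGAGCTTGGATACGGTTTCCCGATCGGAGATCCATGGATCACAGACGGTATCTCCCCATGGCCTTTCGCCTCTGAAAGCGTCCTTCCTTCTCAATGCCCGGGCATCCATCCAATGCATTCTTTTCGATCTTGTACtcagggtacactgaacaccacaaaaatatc

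**Figure D2:**
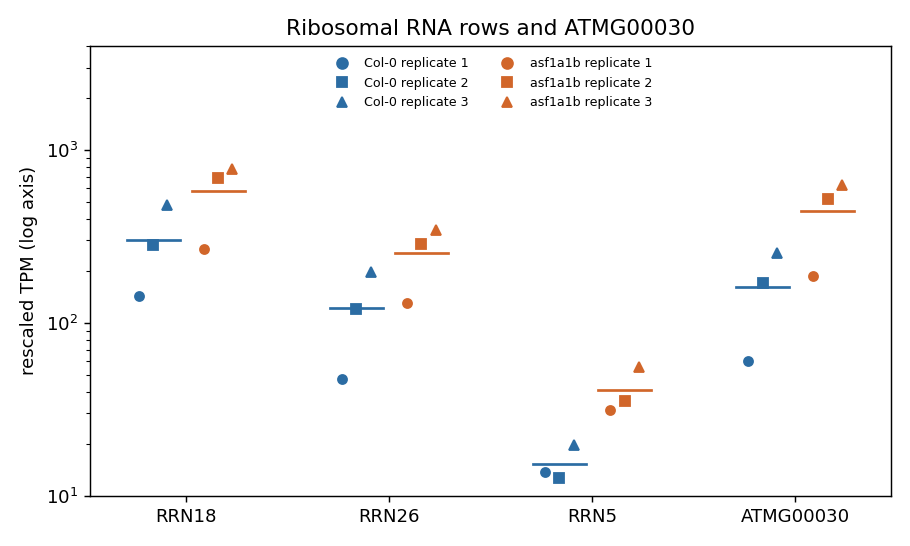
Rescaled TPM (log axis) of the 3 mitochondrial ribosomal RNA rows and of ATMG00030; each point is 1 library and each line a genotype mean. Replicate 1 is the lowest library of each genotype for RRN18, RRN26 and ATMG00030, and the genotypes are apart for RRN5 only.

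Ribosomal protein genes differed least. Their sum was 131, 174 and 263 in Col-0 and 200, 279 and 240 in asf1a1b, overlapping, with a ratio of means of 1.27. Of the 7 rows, 1 rose and 6 did not pass, where 16.1% of all tested genes were called higher. The median log2 difference was 0.40. RPS12 (ATMG00980), a protein of the decoding site of the small subunit, rose from 36.1, 14.4 and 23.3 to 50.8, 43.2 and 42.0 (log2 difference 0.94 ± 0.29 SE, limma adjusted p = 0.043). That call was kept only without Col-0 replicate 1. Omitting replicate 2 or 3 of Col-0 or any mutant library ended it, with an adjusted p of up to 0.11.

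Among the 41 rows in functional groups, the smallest differences were also of ribosomal proteins. RPS7 (ATMG01270) stood at 6.95, 9.26 and 14.5 in Col-0 and at 12.7, 8.78 and 9.23 in asf1a1b, a log2 difference of 0.04 ± 0.25 (SE, limma adjusted p = 0.92). RPS3 (ATMG00090) stood at 24.0, 47.2 and 71.3 against 34.8, 58.8 and 49.0 (0.10 ± 0.37, limma adjusted p = 0.861). RPL16 (ATMG00080) overlaps RPS3 by 134 bases on the plus strand, and reads of that stretch cannot be told apart. It stood at 22.1, 41.7 and 59.3 against 33.8, 53.3 and 49.1 (0.22 ± 0.34, limma adjusted p = 0.647). In all 3 rows, every mutant library lay below the highest Col-0 library. RPL5, RPS4 and RPL2, with log2 differences of 0.40, 0.52 and 0.69, did not pass either, though RPL2 did with the replicate block (limma adjusted p = 0.046). Under the block 2 of the 7 ribosomal protein rows were called, where 20.9% of all tested genes were called higher.

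Complex I, the NADH dehydrogenase at the entry of the respiratory chain, has the most mitochondrially encoded parts. The sum of its 14 rows was 476, 414 and 706 in Col-0 and 851, 1012 and 877 in asf1a1b, without overlap, a ratio of means of 1.72. Of the 14, 6 rose and 8 did not pass, where 16.1% of all tested genes were called higher. With the replicate block 9 were called, where 20.9% of all tested genes were called higher. Each difference was positive, from 0.32 for NAD4 to 1.43 for NAD7. NAD7 (ATMG00510), a subunit of the arm that faces the matrix, had the largest difference of the 41 named rows. Its level was 20.04, 20.6 and 39.8 in Col-0 and 61.9, 82.3 and 68.1 in asf1a1b, far apart. The log2 difference was 1.43 ± 0.26 (SE, limma adjusted p = 0.0075), and leaving out any single library kept the call (largest adjusted p = 0.037).

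NAD3 (ATMG00990), a small membrane subunit, rose from 9.77, 6.34 and 8.38 to 19.1, 17.9 and 15.8 (log2 difference 1.04 ± 0.16 SE, limma adjusted p = 0.0047, at most 0.024 without any one library). NAD4L (ATMG00650), another small membrane subunit, was one of the more abundant messages. It stood at 86.5, 61.5 and 108 in Col-0 and at 151, 135 and 118 in asf1a1b, a smaller difference of 0.68 ± 0.21 (limma adjusted p = 0.044). The NAD4L call held only without Col-0 replicate 3 and ended without any of the other 5 libraries, at an adjusted p of up to 0.12. NAD9 (ATMG00070), NAD6 (ATMG00270) and NAD4 (ATMG00580), with log2 differences of 0.62, 0.91 and 0.32, did not pass. With the replicate block, NAD6 did (limma adjusted p = 0.0062).

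The 3 trans-spliced messages are split over 8 rows, all with positive differences, of which 3 passed. For nad1, parts A, B and C (ATMG01275, ATMG01120, ATMG00516) differed by 0.78 ± 0.38, 0.82 ± 0.35 and 1.22 ± 0.29 (log2, SE), and only C passed (limma adjusted p = 0.151, 0.118 and 0.019). NAD1C stood at 39.2, 42.9 and 72.5 in Col-0 and at 82.2, 156 and 126 in asf1a1b. Its call ended without replicate 2 of Col-0 or replicate 2 or 3 of asf1a1b (adjusted p up to 0.078). For nad2, part A (ATMG00285) differed by 0.51 ± 0.23 and did not pass, and part B (ATMG01320) by 0.71 ± 0.22 and did (limma adjusted p = 0.132 and 0.046). For nad5, parts A, B and C (ATMG00513, ATMG00665, ATMG00060) differed by 0.95 ± 0.36, 0.75 ± 0.23 and 0.85 ± 0.28, and the short part B passed (limma adjusted p = 0.081, 0.042 and 0.057). The calls of NAD2B and NAD5B each held in 1 of the 6 fits without a library, without Col-0 replicate 3 for NAD2B and without Col-0 replicate 1 for NAD5B, with adjusted p of up to 0.15 and 0.12 in the others. Differences between parts of a message were not tested. With the replicate block, NAD5A and NAD5C passed too (limma adjusted p = 0.019 and 0.015), while NAD1A, NAD1B and NAD2A did not (0.051, 0.062 and 0.058).

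MATR (ATMG00520), the intron maturase that helps to splice mitochondrial introns, is encoded inside the span of the last nad1 part. It stood at 8.55, 6.36 and 12.3 in Col-0 and at 19.99, 20.7 and 17.6 in asf1a1b, with no overlap. The log2 difference was 1.06 ± 0.21 (SE, limma adjusted p = 0.0098, at most 0.042 without any one library). MTTB (ATMG00570), a membrane translocase subunit, stood at 1.58, 2.97 and 4.55 against 4.75, 8.54 and 4.99 (0.84 ± 0.31, limma adjusted p = 0.074, and 0.035 with the replicate block).

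COB (ATMG00220), the cytochrome b of complex III, overlapped between genotypes. It stood at 13.7, 21.1 and 43.5 in Col-0 and at 29.4, 43.8 and 43.9 in asf1a1b (0.69 ± 0.38 SE, limma adjusted p = 0.195, and 0.045 with the replicate block). The 3 rows of complex IV, the terminal cytochrome c oxidase, encode its catalytic core, and their sum had a ratio of means of 1.94, without overlap. COX2 (ATMG00160) rose from 105, 78.7 and 139 to 190, 239 and 214 (1.018 ± 0.21, limma adjusted p = 0.011). COX3 (ATMG00730) rose from 13.3, 17.4 and 29.2 to 34.4, 40.5 and 40.4 (0.98 ± 0.25, limma adjusted p = 0.025). COX1 (ATMG01360) stood at 19.5, 31.2 and 50.8 against 44.8, 68.7 and 66.8, where Col-0 replicate 3 lay above asf1a1b replicate 1 (0.89 ± 0.33, limma adjusted p = 0.075, and 0.01 with the replicate block). The COX2 call ended without asf1a1b replicate 3 (adjusted p = 0.051), and that of COX3 without replicate 2 of Col-0 or replicate 2 or 3 of asf1a1b (up to 0.095).

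ATP synthase messages were abundant, and 4 of the 6 did not pass. Their sum was 341, 347 and 546 in Col-0 and 582, 609 and 603 in asf1a1b, a ratio of means of 1.45. Of the 6 rows, 2 rose (5 with the replicate block), where 16.1% of all tested genes rose (20.9% with the block). ATP1 (ATMG01190), the alpha subunit of the catalytic head, was the most abundant protein message. It stood at 148, 166 and 247 in Col-0 and at 266, 239 and 240 in asf1a1b, so that Col-0 replicate 3 lay within the mutant range (0.44 ± 0.20 SE, limma adjusted p = 0.124). ATP9 (ATMG01080), the ring subunit of the membrane rotor, stood at 80.4, 104 and 165 against 148, 188 and 190 (0.64 ± 0.26, limma adjusted p = 0.094, and 0.022 with the replicate block). ATP6-1 (ATMG00410) and ATP6-2 (ATMG01170), near-identical copies of the membrane subunit next to the rotor, were the 2 that rose. ATP6-1 went from 14.5, 10.14 and 15.1 to 18.3, 29.7 and 27.4 (0.87 ± 0.22, limma adjusted p = 0.022). ATP6-2 went from 17.3, 10.5 and 16.3 to 22.7, 36.5 and 33.7 (1.03 ± 0.23, limma adjusted p = 0.016). Which of the reference's copies each identifier stands for was not settled. Reads can be split between these copies, and both calls ended without replicate 2 of Col-0 or replicate 2 or 3 of asf1a1b (up to 0.093). ATP4 and ATP8, peripheral subunits, had log2 differences of 0.62 and 0.52 and did not pass (limma adjusted p = 0.075 and 0.09, and 0.043 and 0.025 with the replicate block).

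Cytochrome c maturation genes, which deliver and attach heme to c-type cytochromes, rose as a whole group, 5 of 5. Over all tested genes, 16.1% were called higher. Their sum was 34.7, 24.0 and 27.6 in Col-0 and 53.6, 63.7 and 53.7 in asf1a1b, a ratio of means of 1.98. CCMB (ATMG00110), a membrane part of the transporter, rose from 8.71, 10.3 and 12.1 to 17.7, 24.8 and 20.9 (0.96 ± 0.17 SE, limma adjusted p = 0.0064). CCMC (ATMG00900), a heme handling protein, rose from 1.496, 0.947 and 1.61 to 2.76, 5.21 and 4.34 (1.10 ± 0.22, limma adjusted p = 0.0098). The 3 rows of the heme attachment protein, CCMFC (ATMG00180), CCMFN1 (ATMG00830) and CCMFN2 (ATMG00960), rose by 0.83, 1.10 and 0.68 (limma adjusted p = 0.049, 0.021 and 0.0098). The calls of CCMB and CCMFN2 were kept without any one library. That of CCMC ended without asf1a1b replicate 3 (adjusted p = 0.051). The CCMFN1 call ended on omitting replicate 2 or 3 of either genotype (up to 0.077), and that of CCMFC in all fits but that without Col-0 replicate 1 (up to 0.15).

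**Figure D3:**
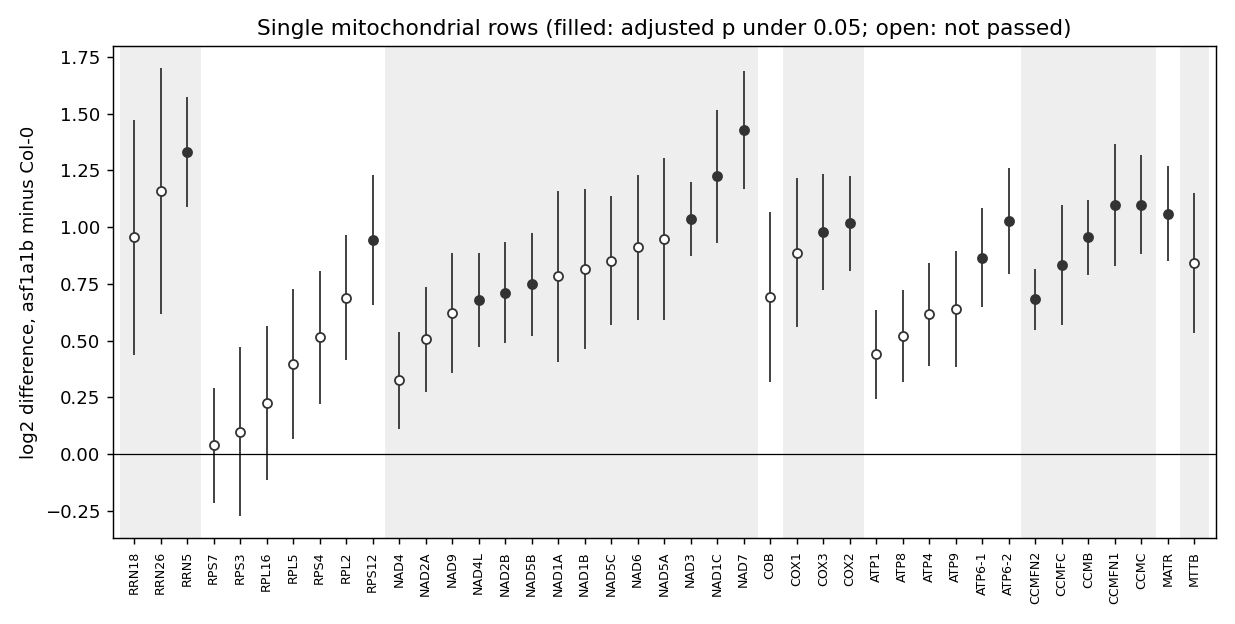
Log2 difference, asf1a1b minus Col-0, on the log2(value + 1) scale for the 41 rows in functional groups, ordered within each shaded or unshaded group; bars are SE of the limma fit. All 41 lie above 0, and the 18 filled points passed an adjusted p of 0.05.

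All 24 rows of transfer RNA size were tested, with 13 rising and 0 falling, where 16.1% of all tested genes were called higher. The median log2 difference was 0.92 and the ratio of summed means 2.07. The most abundant, ATMG09450 of 80 bases, stood at 141, 98.1 and 90.2 in Col-0 and at 210, 207 and 289 in asf1a1b (1.10 ± 0.21 SE, limma adjusted p = 0.0084). ATMG09730, also of 80 bases, stood at 117, 80.3 and 80.4 against 183, 168 and 237 (1.08 ± 0.20, limma adjusted p = 0.0073). Unlike for the long ribosomal RNAs, replicate 1 was the highest Col-0 library here. The largest log2 difference of any mitochondrial row was that of ATMG01340 (73 bases), from 1.62, 0 and 1.16 to 4.16, 9.45 and 6.11, on 0 to 4 reads in Col-0 (2.03 ± 0.39, limma adjusted p = 0.0092). ATMG00230 (87 bases) went from 0.34, 0.70 and 0.648 to 3.49, 4.10 and 3.52, also on very few reads in Col-0 (1.60 ± 0.15, limma adjusted p = 0.0012). ATMG00780 (88 bases) went from 4.03, 4.15 and 1.60 to 9.59, 7.57 and 13.3 (1.42 ± 0.30, limma adjusted p = 0.012), a call that ended without asf1a1b replicate 3 (0.058).

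Of the 83 other rows, to which no role is given here, 63 were tested, 39 rose and 0 fell, with a median log2 difference of 0.72. The share of all tested genes called higher was 16.1%. ATMG00280, which the reference's note describes as a ribulose bisphosphate carboxylase large chain domain (a plastid enzyme), rose from 2.40, 0.914 and 1.52 to 4.06, 9.86 and 7.20 (1.59 ± 0.31 SE, limma adjusted p = 0.0096). ORF262 (ATMG01090) was the only tested row with a negative difference. It stood at 84.2, 51.3 and 58.0 in Col-0 and at 81.1, 53.0 and 50.6 in asf1a1b (-0.07 ± 0.24, limma adjusted p = 0.854). ORF294 (ATMG01200), which lies next to ATP1, stood at 34.4, 47.8 and 70.3 against 68.2, 64.1 and 58.2 (0.37 ± 0.24, limma adjusted p = 0.263).

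The makeup of the mitochondrial RNA pool was compared by scaling each library to one total over the mitochondrial rows. A fit on that scale lowers most nuclear genes by construction (57.2% of all tested genes called lower, 3.09% higher, median log2 difference -0.75). Its adjusted p-values are therefore not used for single rows, and shares are given as values only, for the 7 of 126 rows with the smallest p in it (13 had an unadjusted p under 0.05). ATMG00230, a row of very few reads in Col-0, made up 0.0145%, 0.0292% and 0.0181% of the mitochondrial total there and 0.0865%, 0.0768% and 0.0643% in asf1a1b. ATMG01340 and ATMG01400 also had larger shares in each mutant library than in any Col-0 library, while ATMG00280 overlapped. RPS3 made up 1.024%, 1.97% and 1.99% in Col-0 and 0.861%, 1.10% and 0.895% in asf1a1b, and Col-0 replicate 1 lay below asf1a1b replicate 2. ORF262 made up 3.59%, 2.14% and 1.62% against 2.01%, 0.993% and 0.924%, and RPS7 0.297%, 0.386% and 0.405% against 0.314%, 0.164% and 0.168%, both overlapping. As groups, ribosomal protein rows made up 5.59%, 7.26% and 7.32% of the mitochondrial total in Col-0 and 4.95%, 5.21% and 4.38% in asf1a1b, without overlap. ATP synthase rows made up 14.6%, 14.5% and 15.2% against 14.4%, 11.4% and 11.005%, also without overlap. That gap was narrow, with 14.50% in Col-0 replicate 2 and 14.43% in asf1a1b replicate 1. In every other group the genotypes overlapped. Ribosomal RNA made up 8.73% to 19.5% in Col-0 and 10.6% to 21.4% in asf1a1b, and complex I 17.3% to 20.3% against 16.0% to 21.1%, both overlapping.

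Mitochondrial sequence also lies in the nucleus. Of the 100-base windows of the reference mitochondrial genome, 67.6% occur unchanged in the nuclear chromosomes, nearly all in a large insertion on chromosome 2, and reads of those stretches cannot be assigned to one genome. RRN18, RRN26, RRN5, COX1, ATP4, NAD9, NAD4L and CCMB are among 15 placed rows with no such window, 14 of them tested, of which 7 rose, with a median log2 difference of 0.83. Of the 23 tested rows with all windows in the nucleus, among them ATP1, ATP9, COB, COX3 and RPS7, 10 rose, with a median of 0.71. Another 79 rows of the table are nuclear loci whose exons match the mitochondrial genome over at least 90% of windows. Of the 65 of these that were tested, 41 rose and 0 fell, where 16.1% of all tested genes were called higher. The sum of the 79 was 668, 627 and 911 in Col-0 and 1149, 1274 and 1179 in asf1a1b. This is 25.4% to 28.5% of the mitochondrial sum in Col-0 and 21.5% to 28.4% in asf1a1b.

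Plastid transcripts and nuclear ribosomal RNA moved in the same direction between the same libraries. The sum of the 133 plastid rows was 322, 914 and 887 in Col-0 and 1418, 2394 and 2945 in asf1a1b. Of the 97 tested, 33 rose and 0 fell, where 16.1% of all tested genes were called higher. With the replicate block 62 rose, where 20.9% of all tested genes were called higher. The nuclear ribosomal RNA row AT2G01010 stood at 3556, 8012 and 9990 in Col-0 and at 10592, 14756 and 16263 in asf1a1b. The 3 nuclear ribosomal RNA rows that were tested had log2 differences of 1.05, 1.06 and 0.86 and did not pass (limma adjusted p = 0.101, 0.111 and 0.068; with the replicate block 0.03, 0.039 and 0.027). Row AT3G41979 was listed at 0 in all 6 libraries. Replicate 1 was the lowest library of each genotype for these sums, as for RRN18 and RRN26. How the RNA was selected before sequencing is not given in the sources used here, and the part of ribosomal RNA content in the mitochondrial result was not tested. Of 10 seed coat, endosperm and embryo markers, summed at 18694 to 24581 in Col-0 and 19662 to 23949 in asf1a1b and set mainly by OLEO1 and EPR1, 5 were tested. The seed coat peroxidase gene AT3G50990 rose from 1.57, 0.483 and 0.402 to 4.18, 5.08 and 6.79, and MAN7, a mannan-degrading enzyme gene, from 2.76, 1.95 and 1.34 to 6.46, 4.16 and 4.15 (limma adjusted p = 0.0036 and 0.016, the latter up to 0.059 without a library, Col-0 replicate 2). The embryo gene WOX2 stood at 68.5, 28.5 and 25.7 in Col-0 and at 36.6, 8.15 and 8.91 in asf1a1b, lower within each replicate number (-1.33 ± 0.58, limma adjusted p = 0.119, and 0.0032 with the replicate block). OLEO1 and EPR1 did not pass. MUM2, a seed coat mucilage gene too low to test, stood at 0.393, 0.115 and 0.139 against 0.602, 0.93 and 0.434. TT10, a defining seed coat marker, was listed at 0 in each Col-0 library and at 0.115, 0.242 and 0.054 in asf1a1b, and BAN, another, stood at 0.021 to 0.124 over all libraries. The part of these tissues in the mitochondrial result was not tested.

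**Figure D4:**
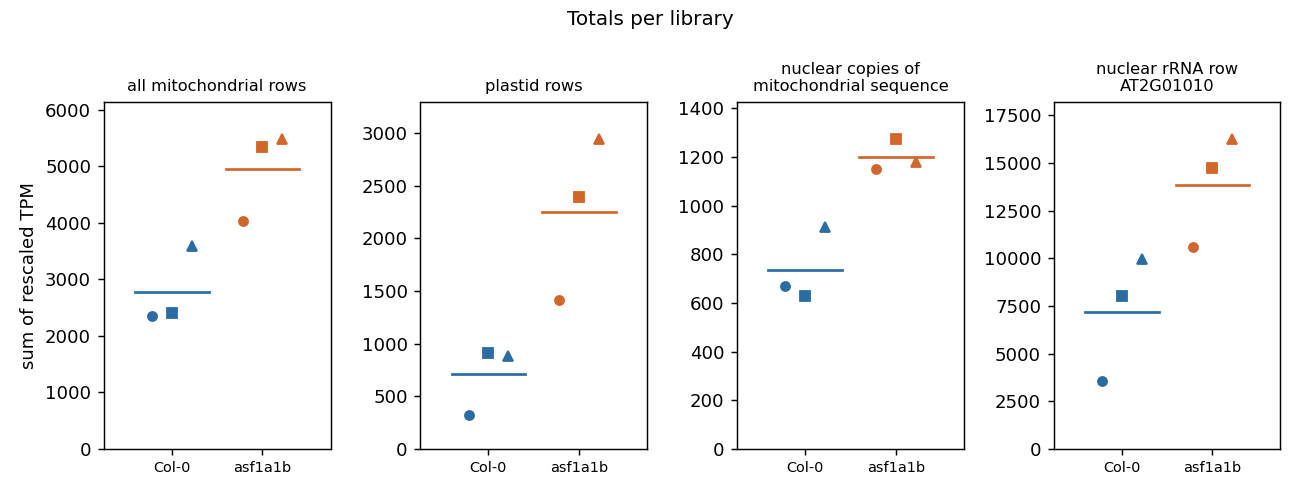
Sum of rescaled TPM per library for the 152 mitochondrial rows, the 133 plastid rows, the 79 nuclear copies of mitochondrial sequence and the nuclear ribosomal RNA row AT2G01010; each point is 1 library (circle, square and triangle for replicates 1, 2 and 3) and each line a genotype mean. In each panel the 3 asf1a1b libraries lie above the 3 Col-0 libraries.

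Among the listed nuclear genes whose products act on the mitochondrial genome, no tested member was called higher in the main fit. Over all tested genes, 16.1% were called higher and 14.5% lower. Of 17 tested genes for mitochondrial transcription and RNA maturation, 0 rose and 4 fell (7 fell with the replicate block), with a median log2 difference of -0.31. The 14.5% is of the main fit, and the share of all tested genes called lower with the block was not taken. Of 8 genes for mitochondrial genome replication and maintenance, 0 rose and 4 fell, with a median of -0.26. POLGAMMA1 (AT3G20540) and POLGAMMA2 (AT1G50840), the organelle DNA polymerases, stood at 15.5, 16.4 and 16.6 against 9.49, 9.88 and 6.84, and at 16.4, 16.2 and 16.9 against 10.8, 10.5 and 8.999. They fell by 0.83 and 0.66 on the log2 scale (limma adjusted p = 0.0071 and 0.006, at most 0.036 without any one library). ATWHY2 (AT1G71260), a DNA-binding protein of mitochondria, fell by 0.56 (limma adjusted p = 0.0096), and AT1G30680, a toprim domain protein, by 0.41 (limma adjusted p = 0.024). Without asf1a1b replicate 3 these 2 calls ended, the first at an adjusted p of up to 0.054 and the second at up to 0.10. Both also ended on omitting replicate 2 of Col-0, and that of AT1G30680 on omitting replicate 3 of Col-0 or replicate 2 of asf1a1b as well.

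Among the RNA factors, MORF1 (AT4G20020), an RNA editing factor, stood at 70.7, 70.8 and 83.1 in Col-0 and at 47.2, 53.0 and 43.3 in asf1a1b (-0.64 ± 0.12 SE, limma adjusted p = 0.0096). Its call ended without asf1a1b replicate 3 (adjusted p = 0.052), as did those of the intron maturase genes nMAT1 (AT1G30010) and AT5G46920 and of AT4G31010, an RNA-binding protein gene, which fell by 0.51, 0.60 and 0.65 (limma adjusted p = 0.039, 0.012 and 0.013). The nMAT1 and AT4G31010 calls also ended when replicate 2 of either genotype was omitted, and that of nMAT1 when replicate 1 or 3 of Col-0 was. The polymerase gene AT1G68990 (MGP3) stood at 6.19, 8.75 and 8.45 against 5.19, 6.37 and 4.72 and did not pass (-0.45 ± 0.17, limma adjusted p = 0.076, and 0.044 with the replicate block). AT5G15700, annotated as a polymerase of the same superfamily, had a log2 difference of -0.33 ± 0.15 (limma adjusted p = 0.134).

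Nuclear-encoded respiratory chain and ATP synthase subunits, the partners of the mitochondrial products, differed in both directions. The difference was positive for 24 of 32, where 50.6% of all tested genes had a positive one. Of the 32 tested, 1 rose and 0 fell, where 16.1% of all tested genes were called higher and 14.5% lower. The median log2 difference of the 32 was 0.10, and their sum was 2003 to 2049 in Col-0 and 1950 to 2104 in asf1a1b. The most abundant, SDH2-3 (AT5G65165), another complex II subunit, went the other way, at 586, 461 and 384 against 437, 286 and 334 (-0.44, limma adjusted p = 0.157, and 0.044 with the replicate block). Without it the sum was 1422, 1542 and 1665 in Col-0 and 1513, 1704 and 1770 in asf1a1b, overlapping but higher in the mutant within each replicate number. AT3G15640, the COX5B-1 subunit gene of complex IV, had a log2 difference of -0.39 (limma adjusted p = 0.054, and 0.049 with the replicate block). The one that rose, SDH2-1 (AT3G27380), an iron-sulphur subunit of complex II, stood at 5.86, 3.62 and 3.87 against 7.98, 9.46 and 9.37 (0.89 ± 0.18 SE, limma adjusted p = 0.0098, and 0.051 without asf1a1b replicate 3). Of 8 tested genes of alternative respiration and mitochondrial stress response, 1 rose and 2 fell. AOX1A (AT3G22370), the alternative oxidase that is a common marker of disturbed respiration, stood at 0.201, 0.293 and 0.48 in Col-0 and at 0.785, 6.16 and 3.22 in asf1a1b (1.52 ± 0.45, limma adjusted p = 0.038). That call held only without asf1a1b replicate 1, and ended without each of the other libraries (up to 0.13). AOX2 (AT5G64210), a more abundant alternative oxidase gene, went the other way, at 61.0, 57.1 and 43.1 against 51.3, 26.5 and 31.4. It did not pass (-0.59 ± 0.25 SE, limma adjusted p = 0.108, and 0.036 with the replicate block). Of the 8 tested genes, 3 had a positive difference, and the median was -0.25. The sum of all 13 listed genes was 215, 206 and 187 in Col-0 and 179, 157 and 156 in asf1a1b. NDB2 (AT4G05020) and NDA2 (AT2G29990), alternative NAD(P)H dehydrogenases, fell by 0.58 and 0.33 on the log2 scale (limma adjusted p = 0.0098 and 0.042). The NDB2 call ended without Col-0 replicate 2 (0.051), and that of NDA2 was kept only without Col-0 replicate 1 (up to 0.13 in the others).

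**Figure D5:**
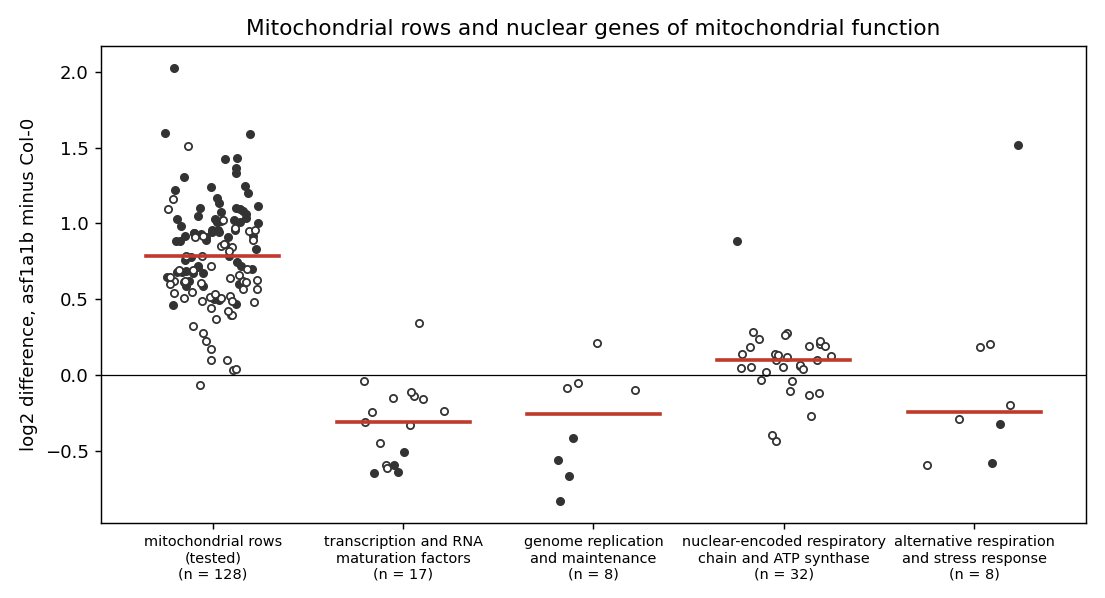
Log2 difference, asf1a1b minus Col-0, of the 128 tested mitochondrial rows and of the tested members of 4 lists of nuclear genes of mitochondrial function; filled points passed an adjusted p of 0.05, and red lines are medians. The median is 0.78 for the mitochondrial rows, -0.31 and -0.26 for the RNA and genome maintenance factors and 0.10 for the nuclear-encoded subunits.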

How the data were processed

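Per the submitters' processing notes, reads were handled with fastp 0.23.4 and HISAT2 2.2.1 on TAIR10. Not given in the sources used here: counter, annotation release, strand setting and RNA selection. The values in the authors' deposited table are a signal per gene that the file name calls TPM. Library totals differ, so it is called rescaled TPM here. The authors also deposited a comparison table whose columns are a log2 fold change and raw and adjusted p-values.

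Values times gene length gave whole multiples of 1 step per library (at least 99.3% of values checked within 0.1 of a whole number). Reads and row lengths were recovered from these steps, 42906833 to 56342975 reads per library, of which 53657 to 190568 were mitochondrial. Of 899 nuclear genes, 90.5% had the annotated length as the solved one. Differences were tested with limma 3.58.1 (R 4.3.3) on log2(value + 1), for the 14663 genes with a mean of at least 1, genotype as the only term, two-sided, eBayes with trend, Benjamini-Hochberg over all of them, threshold 0.05. This scale understates changes of low rows. Ratios are of group means of deposited values. The code was tested on simulated data.

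Row names of the functional groups came from a list of TAIR names and were checked against the RefSeq annotation of TAIR10.1. The check was an exact length for 29, where a whole multiple of the recovered length also counted. It was a note on nuclear copies for 6, and elimination in order of length for 6 (RRN26, NAD1B, NAD2A, MTTB, ATP6-2 and MATR). Another 24 reading frames were named from RefSeq by a unique length (within 1 base). The named rows are those of the functional groups, the 5 most abundant other rows and the 5 largest changes each way. Per nuclear list, up to 4 called members plus AT1G68990, AT5G15700 and AOX1A are named. ATMG01400, WOX2, MUM2, SDH2-3, COX5B-1 and AOX2 were named after their values were seen. Members and lists were chosen with earlier results of these data known. Same-numbered libraries deviated together over all tested genes (correlations 0.427, 0.144 and 0.327), each above 0.1, so a fit with the number as a block is given beside the main one, which has no block. No label names a shared batch. Over the 128 mitochondrial rows the correlations were 0.361, 0.022 and 0.111. Col-0 replicate 3 deviated more closely with asf1a1b replicate 2 than with replicate 3 (0.381 over all genes and 0.429 over mitochondrial rows).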

Additional observations from a re-analysis of the deposited data

How the results depend on the processing

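The count of mitochondrial rows higher in asf1a1b was 70, and between 28 and 76 when one library was left out. It was 36 with a mean of at least 5 (80 rows tested) and 57 to 70 under the other scalings, filters and pseudocount, eBayes without trend and limma-voom on recovered reads (59), which was chosen after seeing the data in place of the planned count test, which was not run. With one total over the mitochondrial rows, a scaling that itself lowers most nuclear genes and so loosens the adjustment, it was 4 higher and 3 lower, and the authors' deposited table calls 3 up. The count lower was 0 in every other fit. With the replicate block it was 94 higher, and the block ended no call. With one mitochondrial total, which expresses each row as a share, several rows changed sign. Among them, RPS3, RPS7, RPL16, NAD9, NAD4L, NAD5B and NAD2B went to -0.73, -0.72, -0.61, -0.21, -0.16, -0.10 and -0.12 (log2). In the authors' deposited table RPS3 and RPS7 had log2 fold changes of -0.019 and -0.028. Scaling to one mitochondrial total makes the mitochondrial totals equal by construction. Under the other scalings and with each library left out, the ratio of these totals stayed within its replicate spread. For the nuclear lists, one library left out gave 0 to 6 RNA factors lower and 0 to 1 higher, 2 to 4 maintenance genes lower, 0 to 1 respiratory subunits higher and 0 to 1 lower, and 0 to 2 alternative respiration genes higher and 0 to 2 lower. With the replicate block 7 RNA factors and 2 respiratory subunits fell, and with median-of-ratios scaling 1 subunit did. The share of all tested genes called lower was not taken for these fits or for those without a library. The causes were not tested. Depth limits the low rows: ATMG01340 rests on 0 to 4 reads per Col-0 library, and ATMG00230 also rests on very few.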
